A study of Mus musculus with 2 samples.

Results

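The H3K27ac peaks around Has2, Hapln1 and Vcan, 3 genes of the cardiac jelly, were compared between the atrioventricular canal (AVC) and the chambers of the embryonic mouse heart. H3K27ac, acetylated lysine 27 of histone H3, marks promoters and enhancers in use. Members were the peaks of either list whose midpoint lay in the mm9 window of Has2 on chromosome 15, from 56350001 to 56650000 (300 kb), or in the window of the neighbours Hapln1 and Vcan on chromosome 13, from 89550001 to 89980000 (430 kb). They numbered 58 of the 154664 peaks of both lists, 37 of 87572 in the AVC and 21 of 67092 in the chambers. Both libraries came from FVB/N embryos at stage E10.5 labelled Katushka+ EGFP+, where EGFP and Katushka are fluorescent proteins. EGFP-positive cells labelled as atrioventricular canal gave the AVC library, and Katushka-positive cells labelled as chambers gave the other. The sequences that drive either reporter, the cell types each reporter marks and the number of embryos pooled are not named in the labels. Each tissue had 1 library, so no difference below has a replicate check or a p-value, and intervals cover counting error only. The tissue labels were not checked against marker loci, because no mm9 gene annotation was used here.

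Has2 encodes the membrane enzyme that makes most of the hyaluronan of the embryonic heart. Hyaluronan is a long sugar polymer that swells with water and forms, with the large proteoglycan versican, the jelly between myocardium and endocardium. Vcan encodes versican, and Hapln1 encodes a link protein that ties versican to hyaluronan. In the atrioventricular canal this jelly fills the endocardial cushions, from which valves and septa form, and mouse embryos without Has2 or versican form no normal cushions. The RefSeq table of the later GRCm38.p6 assembly places Hapln1 between Edil3 and Vcan, and Vcan between Hapln1 and Xrcc4. Has2 lies there between Sntb1 and Slc22a22 and is overlapped by Has2os, a long noncoding RNA. Gene positions in mm9 were not used, and no peak is assigned here to a start site, exon or intron.

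A promoter table of the GRCm38.p6 assembly, which had no entry for Has2, held promoters of Hapln1, on the plus strand, and Vcan, on the minus strand. Each is 300 bases, 250 before and 50 after the annotated start. They are shown because H3K27ac marks active promoters. Whether a peak lies on either was not determined. Capitals mark matches to any of 4 motifs searched on both strands: the T-box motif GGTGTG, the GATA motif AGATAA, the SMAD motif CAGACA and the NFAT motif TTTCCA.
Hapln1: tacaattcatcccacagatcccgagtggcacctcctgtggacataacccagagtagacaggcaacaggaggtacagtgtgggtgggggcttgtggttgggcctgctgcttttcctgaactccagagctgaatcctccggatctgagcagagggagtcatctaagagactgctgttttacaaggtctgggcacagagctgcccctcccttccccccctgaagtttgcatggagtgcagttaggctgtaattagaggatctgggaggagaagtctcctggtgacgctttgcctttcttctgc
Vcan: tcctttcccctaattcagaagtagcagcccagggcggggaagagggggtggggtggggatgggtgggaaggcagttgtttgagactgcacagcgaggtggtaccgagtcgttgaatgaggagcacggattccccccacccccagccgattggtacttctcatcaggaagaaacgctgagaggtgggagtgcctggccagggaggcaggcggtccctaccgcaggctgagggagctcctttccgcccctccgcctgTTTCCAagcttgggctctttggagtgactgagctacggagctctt
The Hapln1 promoter sequence held none of these letters. The Vcan promoter sequence held 1 match, TTTCCA, whose first base is base 6 from the start, counting the start as base 1. Of all 32851 promoters of the table, 21.4% held the NFAT letters, 19.0% the T-box letters, 21.0% the SMAD letters and 11.2% the GATA letters on either strand. GC content was 54.3% (Hapln1) and 61.0% (Vcan), against a median of 52.7% over all promoters.

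The Has2 window held 14 AVC peaks and 5 chamber peaks. The AVC share was 73.7% (exact Clopper-Pearson 95% interval 48.8 to 90.9). The longer AVC list holds 56.8% of all autosomal peaks, and this background lies inside the interval. On chromosome 15 as a whole the AVC share was 57.2%. The AVC peaks of the Has2 window covered 5.57 kb and the chamber peaks 1.52 kb. Over autosomal stretches of 300 kb the medians were 3.90 kb (AVC) and 1.46 kb (chambers). The order of the lists was the same among peaks with a score of at least 3, where 4 belonged to the AVC and 2 to the chambers. That is an AVC share of 66.7% (22.3 to 95.7) against 50.3% over the autosomes. The score is the peak caller's Log(ER), with a minimum of 2 per the file headers. A score of at least 5 was reached by 1 AVC peak (7.14%, against 9.95% of the AVC list) and 0 chamber peaks (against 18.1% of the chamber list). Among peaks at least 300 bp wide there were 11 and 2, a share of 84.6% (54.6 to 98.1) against 67.0%.

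The peak of highest signal value in the Has2 window was the same narrow region in both lists, and it was the only overlap there. Whether so narrow a peak marks an acetylated element was not tested. In AVC coordinates it ran from 56438991 to 56439120 (130 bp) with a signal value of 57 and a score of 6.05. In the chambers it ran from 56438957 to 56439128 (172 bp) with a signal value of 40 and a score of 4.40. The signal value is a whole number per peak that the file headers do not name, and it is not scaled between the lists. In its own list and chromosome, 93.6% of AVC peaks and 78.6% of chamber peaks had a lower value.

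The other Has2 peaks had lower signal values and lay in a single list. Next in the AVC came a pair of peaks 960 bp apart, from 56526185 to 56526667 and from 56527628 to 56528088, each with a signal value of 36 and a score of 3.15. A lower value was held by 71.8% of the AVC peaks of chromosome 15. The nearest chamber peaks were 26.3 and 24.9 kb away from them. An AVC peak of 125 bp from 56484650 to 56484774 had a value of 35, and one from 56454892 to 56455299 a value of 32. The remaining 9 AVC peaks had values from 26 to 31, and 4 of them had 26, the lowest value called on the chromosome. The median AVC peak of the window exceeded 29.8% of the AVC peaks of chromosome 15.

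The 4 chamber peaks without overlap had values of 33 (56552948 to 56553246), 29 (56579318 to 56579716), 27 (56488540 to 56488922) and 25 (56595796 to 56596061). The lowest value called on chromosome 15 in the chambers was 24. An AVC peak lay 2.01 kb from the first of these and 3.77 kb from the third. The other 2 were 15.1 and 31.6 kb from the nearest AVC peak. For chamber peaks without overlap the median distance was 9.44 kb in the window and 3.98 kb on chromosome 15. With the overlap included, 1 of 14 AVC peaks and 1 of 5 chamber peaks of the Has2 window had a peak of the other list within 1 kb. Over the whole lists 32.9% of AVC peaks and 47.5% of chamber peaks had one. By overlap alone, 1 of 14 AVC peaks of the window was shared (7.14%, 0.181 to 33.9), against 23.2% of the whole AVC list. Of the 5 chamber peaks 1 was shared (interval 0.505 to 71.6%), against 31.6% of the whole chamber list. Both intervals hold these backgrounds, and most peaks of either whole list lay in that list only.

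Along the Has2 window the AVC peaks were spread over 5 of 6 bins of 50 kb, with no peak of either list in the first. From 56500001 to 56550000, the bin right of the window's centre, there were 4 AVC peaks and no chamber peak. From 56550001 to 56600000 there were 3 of each. The AVC list had 3 peaks and the chambers 1 in each of the 2 bins from 56400001 to 56500000. In the last bin there was 1 AVC peak and no chamber peak. The median autosomal stretch of 300 kb held 5 chamber peaks, fewer than its 6 bins, so bins without a chamber peak are ordinary.

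**Figure D1:**
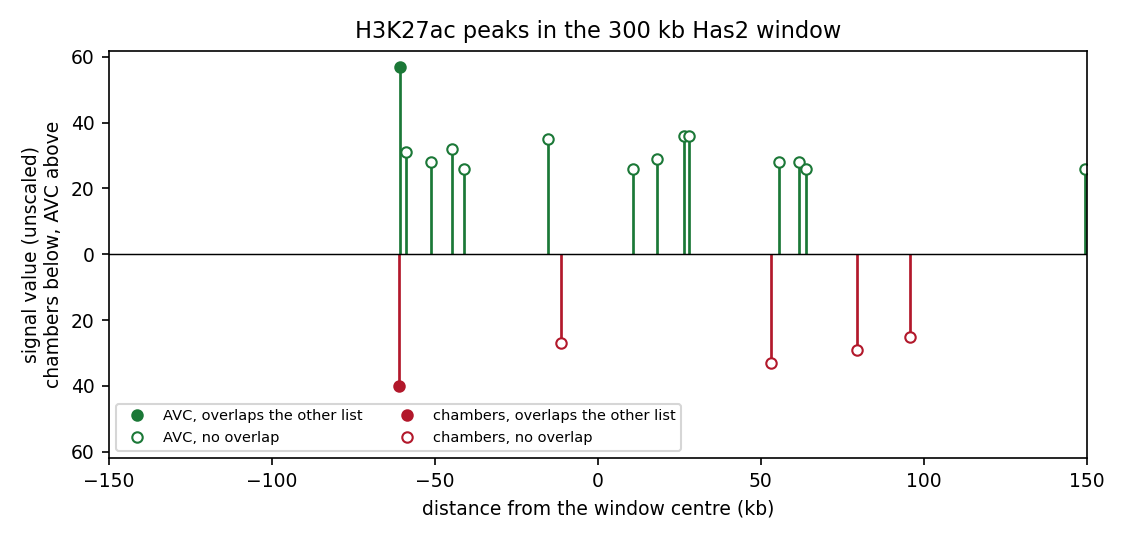
H3K27ac peaks of the Has2 window by distance from its centre (kb), with the unscaled signal value of each of the 14 AVC peaks above and the 5 chamber peaks below the line; filled points overlap the other list. The tallest point of each list, 57 and 40, is the same narrow region.

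The Hapln1-Vcan window held 23 AVC peaks, covering 11.7 kb, and 16 chamber peaks, covering 4.66 kb. Over autosomal stretches of 430 kb the median covered lengths were 5.84 kb (AVC) and 2.29 kb (chambers). The AVC share was 59.0% (42.1 to 74.4), against 59.2% on chromosome 13 and 56.8% over the autosomes. Of the AVC peaks 5 overlapped a chamber peak (21.7%, 7.46 to 43.7), against 23.2% of the whole AVC list. Of the chamber peaks 6 overlapped an AVC peak (37.5%, 15.2 to 64.6), against 31.6% of the whole chamber list. A score of at least 3 was reached by 11 of 23 AVC peaks (47.8%, against 34.3% of the list) and by 9 of 16 chamber peaks (56.2%, against 44.5%). A score of at least 5 was reached by 3 of 23 AVC peaks, against 9.95% of the list, and by 1 of 16 chamber peaks (6.25%, against 18.1%). When the AVC list was cut by score to the length of the chamber list, each had 16 peaks in the window.

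Peaks gathered at 1 place in this window. Joining peaks of either list across gaps of at most 5 kb gave 14 groups, of which 9 were single peaks. The largest ran from 89869496 to 89889120 (19.6 kb) and held 18 peaks, 10 from the AVC and 8 from the chambers. Of 71708 such groups on the autosomes, 0.568% had at least 18 peaks, and 22 of them lay on chromosome 13, this one included. Only 41.1% of the 71708 held 2 peaks or more. This group was picked as the largest of 14, so 0.568% is not the share of windows that hold such a group. With gaps of at most 10 kb, 1.59% of groups had at least 18 peaks. The next largest group of the window, from 89965181 to 89973776, held 4 AVC peaks and 1 chamber peak. Between those groups and before them the peaks lay singly, in pairs or, at 1 place, as 3.

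Within the group of 18, the AVC peaks spread more widely in rank than the chamber peaks. Their signal values ran from 26 to 52, with a median of 42.5, and the chamber values from 28 to 37, with a median of 32.5. The median AVC peak exceeded 84.7% of AVC peaks on chromosome 13, and the median chamber peak exceeded 61.7% of chamber peaks there. The ranks overlapped: 4 of the 10 AVC peaks exceeded 34.0% of their list or less, below all 8 chamber peaks, which exceeded 38.9% to 73.1% of theirs. In the rest of the window the median AVC peak exceeded 41.9% of its list and the median chamber peak 50.4%. The group held 4 of the 5 shared AVC peaks of the window and 5 of the 6 shared chamber peaks, among its 10 AVC and 8 chamber peaks. Over the whole lists 23.2% of AVC peaks and 31.6% of chamber peaks were shared. Of the bases called in the chambers inside the group, 48.7% were also called in the AVC, and 24.3% the other way round. In the rest of the window 4.16% and 1.28% were. The group was singled out by its number of peaks, and this contrast was not tested. Overlapping peaks always fall in the same group, which by itself raises the shared counts and base shares of a large group. Base shares were not computed for other groups.

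The strongest AVC peaks of the group had no overlapping chamber peak. They ran from 89871599 to 89872336 (738 bp) and from 89877934 to 89878454 (521 bp), each with a signal value of 52 and a score of 5.28, and 92.6% of AVC peaks on chromosome 13 had a lower value. The nearest chamber peaks were 1.31 and 1.93 kb away. Another unshared AVC peak, from 89876534 to 89877076, had a value of 44 and a chamber peak 0.655 kb away. The chamber list's own unshared peak of highest value in the group, from 89870051 to 89870287, had a value of 33 and lay 113 bp from an AVC peak. Of the group, 7 of the 10 AVC peaks and 7 of the 8 chamber peaks overlapped or had a peak of the other list within 1 kb, against 32.9% and 47.5% of the whole lists. In the rest of the window 2 of 13 and 1 of 8 did. The group was built by joining nearby peaks, which by itself raises these counts.

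The strongest shared locus of the group was an AVC peak from 89875190 to 89875793 with a value of 44. It overlapped a pair of chamber peaks, from 89875039 to 89875474 with a value of 37 and from 89875500 to 89875878 with a value of 33. The other shared pairs of the group had AVC values of 42, 26 and 29 and chamber values of 28, 33 and 28.

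**Figure D2:**
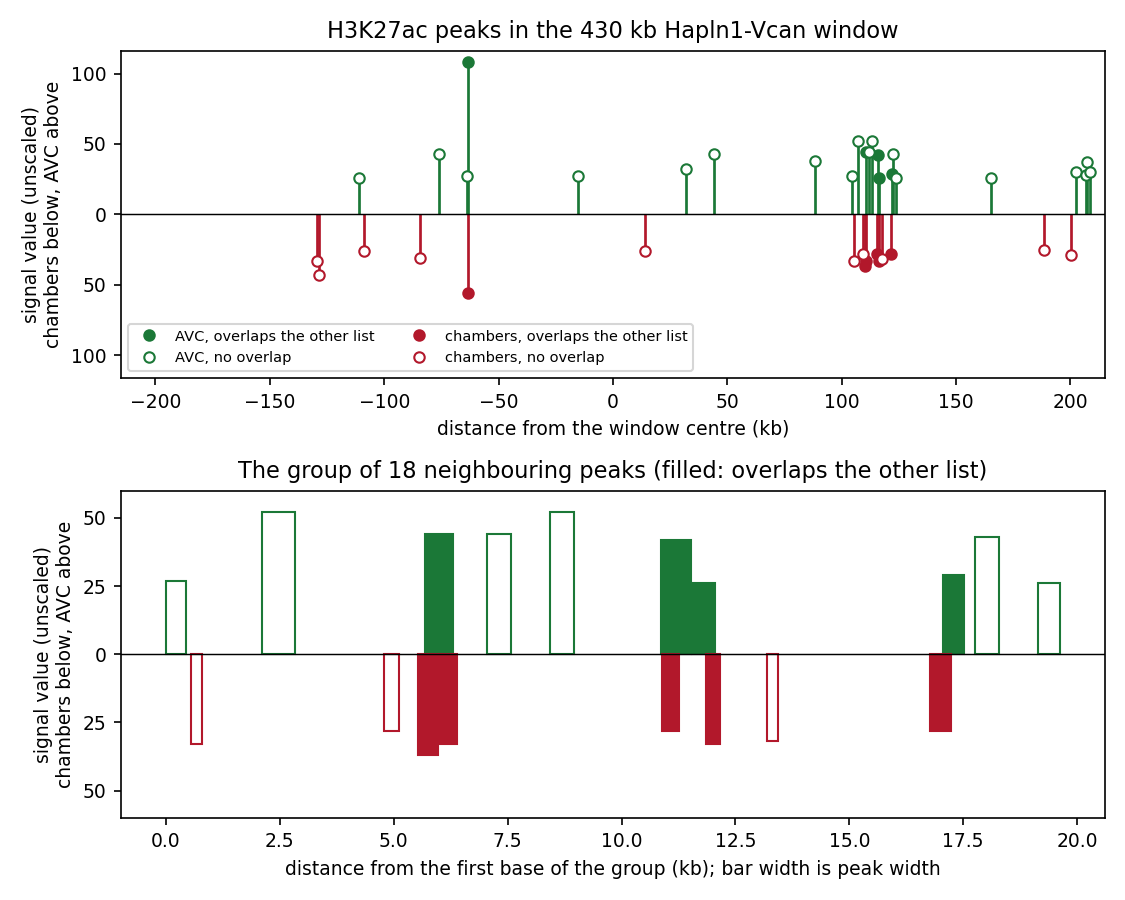
H3K27ac peaks of the Hapln1-Vcan window by distance from its centre (kb), with unscaled signal values of AVC peaks above and chamber peaks below the line, and, in the lower panel, the group of 18 peaks drawn to width (kb from its first base). Filled symbols overlap the other list; AVC values of the group reach 52 and chamber values 37.

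As at Has2, the peak of highest signal value in the Hapln1-Vcan window was narrow and shared. The AVC peak, from 89701418 to 89701549 (132 bp), had a value of 108 and a score of 12.64. The chamber peak, from 89701470 to 89701556 (87 bp), had a value of 56 and a score of 7.06. A lower value was held by 98.0% of AVC peaks and 90.3% of chamber peaks on chromosome 13. The median widths of the whole lists were 472 and 325 bp. Narrow shared peaks of high value were not particular to these windows, and whether such peaks mark acetylated elements was not tested. The overlapping pair of highest AVC value on chromosome 13 (4321 against 2377) was under 300 bp in both lists. On chromosome 15 the highest (4378 against 2399) was not, and the next (3628 against 1949) was.

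Peaks called in the chambers alone were highest left of the window's centre. A chamber peak from 89636150 to 89636527 had a value of 43, with 82.7% of chamber peaks on the chromosome lower, and its neighbour from 89635545 to 89635673 had a value of 33. The nearest AVC peaks were 17.4 and 18.2 kb away, and the bin from 89600001 to 89650000 held these 2 chamber peaks and no AVC peak. For chamber peaks without overlap the median distance was 4.62 kb in the window and 3.92 kb on the chromosome. For AVC peaks without overlap it was 4.02 and 11.5 kb. Among peaks called in the AVC alone, those from 89688524 to 89689022 and from 89808857 to 89809581 had values of 43. The nearest chamber peaks were 7.48 and 29.6 kb away from these AVC peaks. These 2 peaks fall outside the naming rule and were chosen after their values were seen.

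**Figure D3:**
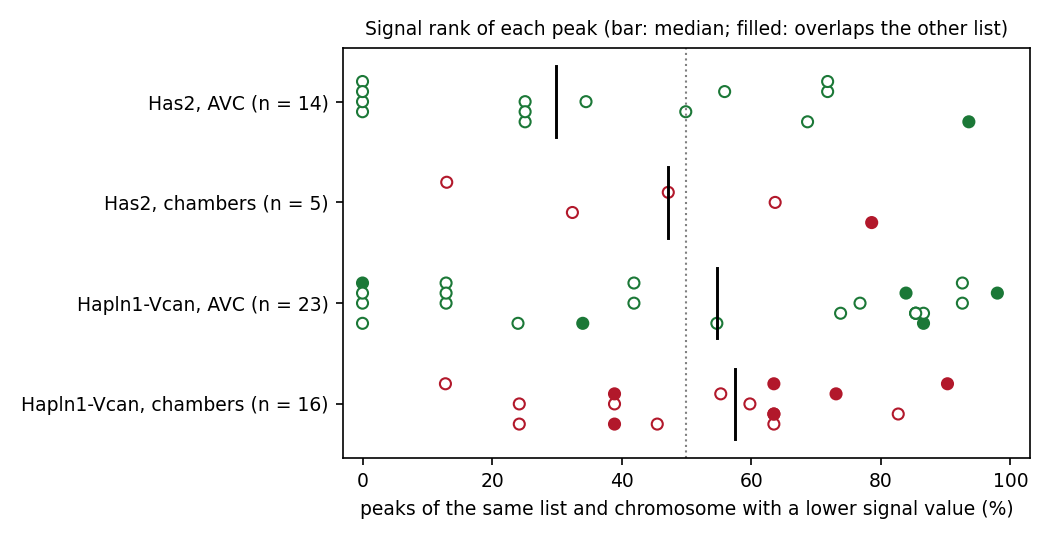
Share (%) of peaks of the same list and chromosome with a lower signal value, for each of the 58 peaks, by window and list; bars are medians and filled points overlap the other list. Medians are 29.8 and 47.2 for AVC and chambers at Has2, and 54.7 and 57.6 at Hapln1-Vcan.

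Signal values of the overlapping pairs were compared with those of the other pairs, since the lists are not scaled to each other. The single Has2 pair had an AVC-to-chamber ratio of 1.43. Its peaks are both under 300 bp, and the 132 pairs of that kind on chromosome 15 had a median ratio of 1.65 (interquartile range 1.39 to 1.83). The narrow pair of the Hapln1-Vcan window had a ratio of 1.93, against a median of 1.61 (1.39 to 1.77) over 124 such pairs on chromosome 13. The 5 wider pairs of that window, all in the group of 18, had ratios from 0.788 to 1.50 with a median of 1.19. Of these pairs, 2 hold the same AVC peak, from 89875190 to 89875793, with ratios of 1.19 and 1.33, so the 5 ratios are not separate loci. The 864 wider pairs of chromosome 13 had a median of 1.04 (0.748 to 1.36). The ratio of the narrow pair of the Hapln1-Vcan window and 1 of its 5 wider ratios lay above the interquartile range of their kind, and the other 4 and the Has2 ratio lay inside it. Libraries of sorted cells cannot tell fewer cells carrying a mark from less of it per cell.

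**Figure D4:**
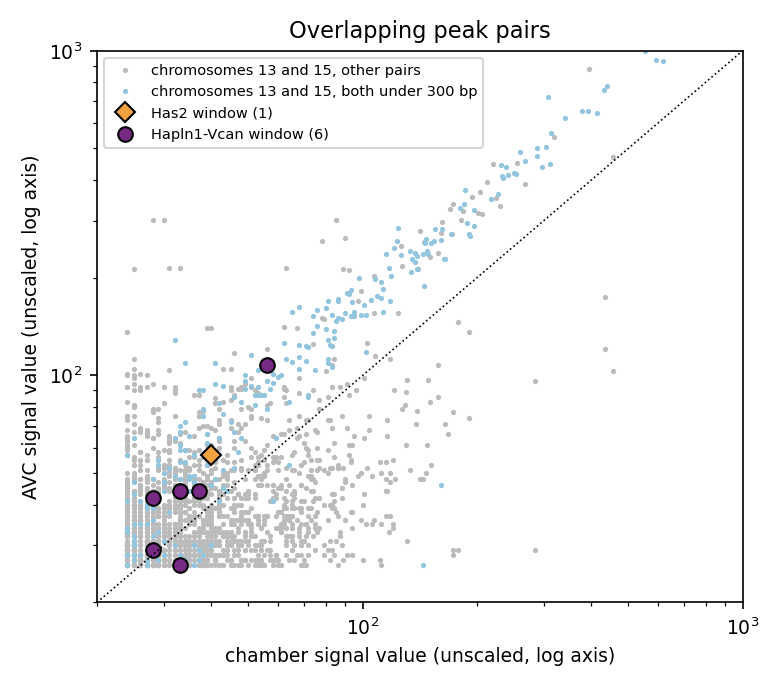
Unscaled AVC against chamber signal value (log axes) of overlapping peak pairs on chromosomes 13 and 15, with pairs under 300 bp in both lists in blue, the Has2 pair as a diamond and the 6 Hapln1-Vcan pairs as circles; the dotted line marks equal values and 10 pairs lie beyond the axes. The narrow pairs of the windows, at 57 against 40 and 108 against 56, lie among the blue points.

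Both windows were richer in AVC peaks than most stretches of their length. Of 8228 autosomal tiles of 300 kb, 29.3% had at least the 14 AVC peaks of the Has2 window and 51.9% at least its 5 chamber peaks. The medians were 8 and 5. Of the 5122 tiles with at least 10 peaks, 14.8% had an AVC share as high as that of Has2. Of 5737 tiles of 430 kb, 22.5% had at least the 23 AVC peaks of the Hapln1-Vcan window and 27.5% at least its 16 chamber peaks, with medians of 12 and 7. An AVC share as high as in that window was found in 48.2% of 4211 tiles. The Has2 window was thus near the median for the chambers and above it for the AVC, and the Hapln1-Vcan window was above the median for both. Peak counts were ranked over all tiles, including tiles with no peak of either list, which raises a window's place. The windows themselves were chosen by gene.

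**Figure D5:**
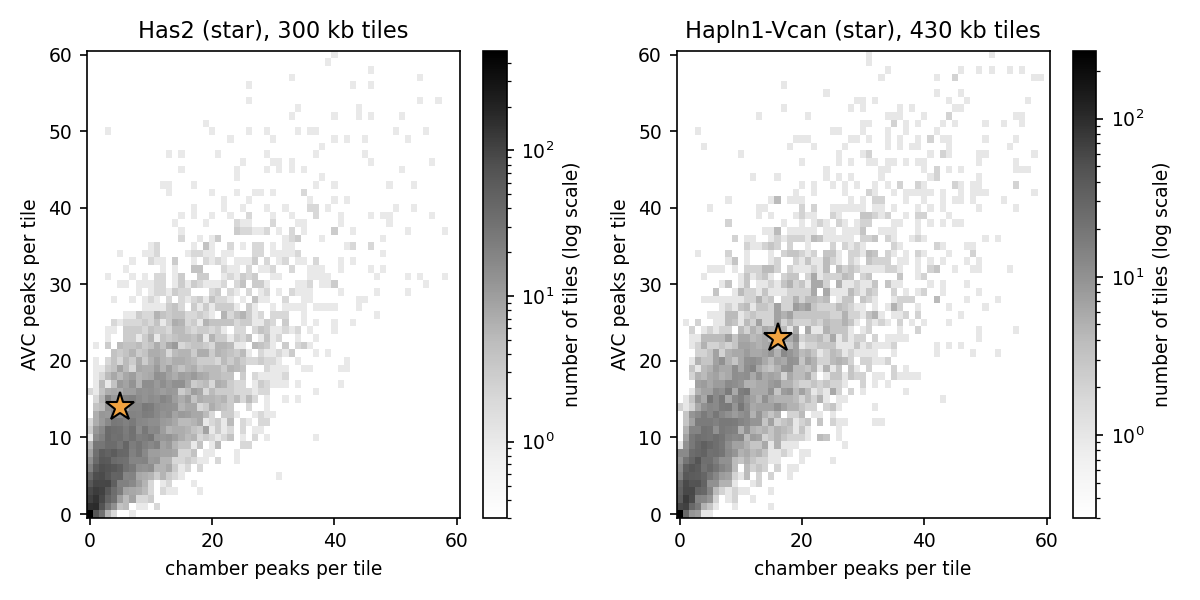
AVC against chamber peaks per autosomal tile, for 300 kb tiles (left) and 430 kb tiles (right); shade gives the number of tiles on a log scale, and 33 and 69 tiles lie beyond the axes. The stars mark the windows, with 14 AVC and 5 chamber peaks at Has2 and 23 and 16 at Hapln1-Vcan.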

How the data were processed

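H3K27ac ChIP-seq peaks of 2 libraries, 1 per tissue, were read as deposited. Per the labels' protocols, sorted and fixed cells were used for ChIP with SOLiD sequencing. Bowtie, SAMtools and mm9 are named in the submitters' processing notes. Per the file headers, OccuPeak 1.3 called the peaks of each library per chromosome at Log(ER) above 2, for reads of 50 bases and modelled fragments of 60.5 bp (AVC) or 68 bp (chambers). The deposited score is that Log(ER), with no log base stated. The signal value deposited by the authors is a whole number, unnamed in the headers and unscaled. Sequencing depth is unknown, and the labels do not say whether an input library was used. A missing peak was not called, which does not show absent acetylation.

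Peaks were placed by midpoint, positions are 1-based, and a peak was shared when it overlapped the other list by at least 1 bp. Tiles ran end to end along the autosomes. Peak counting, overlaps, grouping and tiling were tested on simulated peaks. Named peaks are, per window and list, the 5 of highest signal value (ties by position), the 3 highest without overlap and the pairs that hold them. Members, windows and rules were chosen with earlier results of these data known. The planned start-site and pathway-gene counts were not run, since they need an mm9 annotation. Tools were scipy 1.17.1, pandas 2.3.3 and numpy 2.4.6 under Python 3.11.15, and figures were drawn with matplotlib 3.10.9. Alternatives covered the score and width limits, the overlap definition, list length, window edges, grouping gap and tiling.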

Additional observations from a re-analysis of the deposited data

How the results depend on the processing

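Of 60 recomputed values, 46 stayed within 1.5 times a count, or inside the counting interval of a share, or were the same ratio to 3 digits, and 14 did not. Among the 14 is a ratio that was nearly the same: pairs of single partners gave a median of 1.27 at Hapln1-Vcan, against 1.26 over all pairs. At scores of at least 3 the Has2 window held 4 AVC and 2 chamber peaks and the Hapln1-Vcan window 11 and 9, and 2 AVC and 3 chamber peaks of the latter were shared. With peaks of at least 300 bp, 2 chamber peaks were left at Has2 and 8 at Hapln1-Vcan, and the Has2 window had 0 shared AVC and 0 shared chamber peaks. Requiring 50% of a peak to overlap left 3 shared AVC peaks at Hapln1-Vcan, and a partner within 1 kb gave 9. A gap of 10 kb gave 7 groups at Has2. Stricter settings hold fewer peaks by construction. The AVC list had more peaks than the chambers at Has2 under each of the 5 alternatives to its count, and at Hapln1-Vcan under 4 of 5. With equal peak numbers both lists had 16 at Hapln1-Vcan, and there were 10 AVC and 5 chamber peaks at Has2. Most of these settings keep parts of the same peaks and the AVC list is the longer, so the kept order is not an independent check. No paired analysis was possible because there is 1 library per tissue. Unknown depth limits what a missing peak shows, most of all near the lowest values called on chromosomes 13 and 15, 26 (AVC) and 24 (chambers). Within 3 of that value lay 8 of 14 AVC peaks at Has2 (57.1%, against 42.6% on the chromosome) and 2 of 5 chamber peaks (40.0%, against 40.0%), and at Hapln1-Vcan 39.1% of AVC peaks (against 41.9%) and 18.8% of chamber peaks (against 38.9%).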
